A study of Mus musculus with 2 samples.

Results

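The genes of the mitochondrial respiratory chain and of ATP synthase were described in trunk tissue of E8.5 mouse embryos with and without retinoic acid (RA). Members were all genes whose symbol in the deposited expression table begins with Nduf, Uqcr or Atp5, or with Cox followed by a digit from 4 to 8, or is Sdha, Sdhb, Sdhc or Sdhd. This rule gave 92 genes of 24340 in the table, and it uses names only, no measured value. The study holds 1 wild-type sample and 1 Aldh1a2-/- sample, which carries a null allele on both copies of Aldh1a2 (Raldh2 in the labels), the gene for the enzyme that turns retinaldehyde into RA in trunk mesoderm. Embryos came from matings of heterozygous mice, and the head, heart and caudal tissue were dissected away before RNA was taken from the trunk. The methods describe 2 trunks of each genotype, whereas the labels list 1 sample of each, so no difference below has a replicate check and no test was run. The values compare these libraries.

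The respiratory chain passes electrons from NADH and succinate to oxygen and pumps protons across the inner mitochondrial membrane, and ATP synthase uses the returning protons to make ATP. Complex I oxidises NADH, complex II succinate, complex III passes electrons from ubiquinol to cytochrome c, complex IV reduces oxygen, and complex V is ATP synthase itself. Most subunits are encoded in the nucleus, while some catalytic subunits of complexes I, III, IV and V are encoded in mitochondrial DNA and were not analysed here. Complex I in particular is put together stepwise with the help of assembly factors, proteins that are needed to build it but are absent from the finished enzyme.

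Levels are FPKM, fragment counts scaled to transcript length in kilobases and to library depth. A gene was called measured where it was above 0.5 FPKM in both samples, and higher or lower where its Aldh1a2-/- to wild-type ratio was above 0.85 or below -0.85 in log2, the cutoffs used by the study. The depth, estimated from the steps between low values, came to some 28300000 fragments for the wild-type and 28700000 for the Aldh1a2-/- sample. The methods state a higher number of sequenced reads per sample than these approximate values. Aldh1a2 itself stood at 128 FPKM in wild-type trunk and at 11.7 FPKM in Aldh1a2-/- trunk. Marker genes of other cell types also differed between the samples. Of 9 genes of yolk sac visceral endoderm, 8 were measured and all 8 were higher in Aldh1a2-/-, their summed level being 434 FPKM in wild-type trunk and 6557 FPKM in Aldh1a2-/-, and Amn was listed at 0 in wild type. Of 8 red blood cell genes, 5 were measured and all 5 were higher, with summed levels of 299 and 5851 FPKM, and Gata1 was listed at 0 in wild type. Of 9 genes of trunk mesoderm, 6 were measured and all 6 were lower, with summed levels of 350 and 58.6 FPKM, Tbx18 being listed at 0 in Aldh1a2-/- and Pax1 in wild type. Of 7 neural tube genes, 4 were measured and 2 were lower, with summed levels of 51.2 and 22.4 FPKM, and Nkx6-1 and Olig2 were listed at 0 in Aldh1a2-/-. Of 13 heart muscle genes, 2 were measured and both were higher, with summed levels of 19.4 and 56.1 FPKM. Of those not measured, Tnni1 was at 0.436 and 13.4 FPKM and Ryr2 at 0.0219 and 1.89 FPKM. Myl7 was at 0 and 2.36 FPKM and Nppb at 0 and 0.657 FPKM. In the other direction, Actc1 was at 6.13 and 0.0531 FPKM and Myl3 at 0.762 and 0 FPKM. Myh6, at 0.0741 and 0 FPKM, and Ttn, at 0.0498 and 0.0348 FPKM, were low in both samples. Myl2, Nppa and Tnni3 were listed at 0 in both samples. The part of these shifts in the values below was not tested, and in bulk tissue fewer cells of a type and less RNA per cell cannot be told apart.

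Of the 92 members, 75 were measured. In Aldh1a2-/- trunk 11 were higher, 20 were lower and 44 lay between the cutoffs. Among all 9506 measured genes 23.6% were higher and 22.0% were lower, together 45.6%, so the 41.3% of measured members past a cutoff is close to the share over all genes. The median log2 ratio of the members was 0.04, beside 0.02 for all measured genes, and their quartiles were -0.95 and 0.54. Summed over all 92 genes, the level was 8154 FPKM in wild-type trunk and 8463 FPKM in Aldh1a2-/-. Of the remaining members, 7 were listed at 0 in both samples, 6 at 0 in Aldh1a2-/- and 2 at 0 in wild type, while Ndufa4l2 and Atp5s did not reach the floor.

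**Figure D1:**
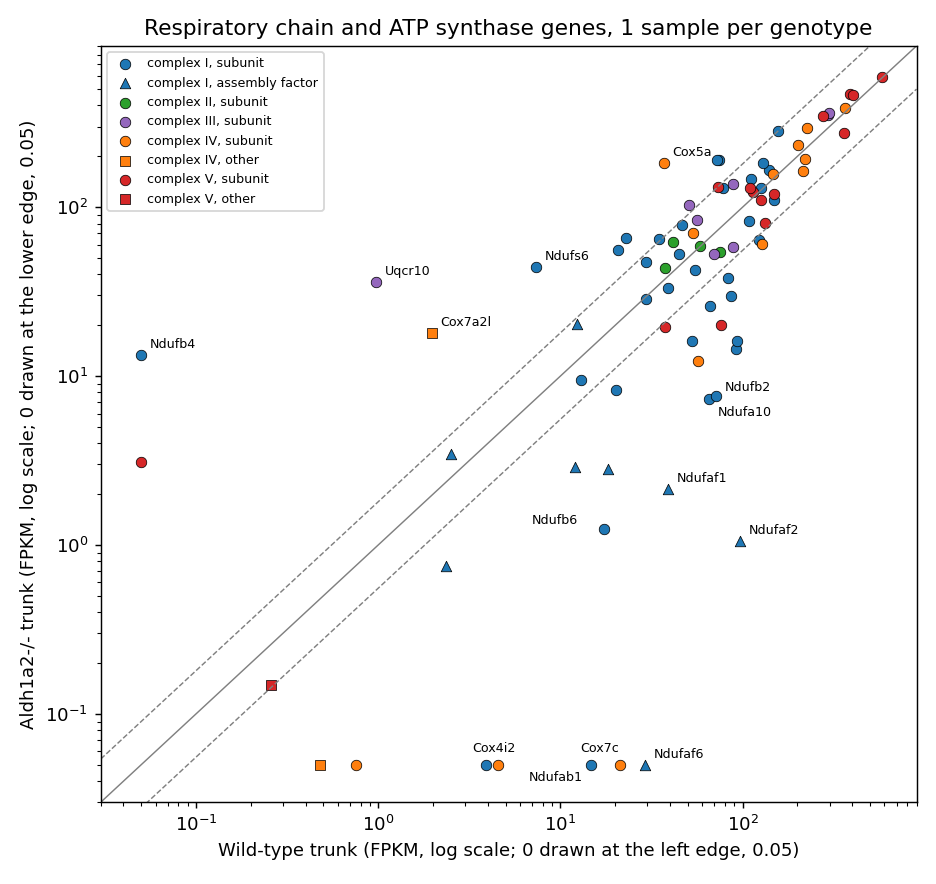
FPKM of each member in the wild-type sample (x axis) and in the Aldh1a2-/- sample (y axis), both on log scales, 1 point per gene, coloured by complex and shaped by role. Genes listed at 0 in 1 sample are drawn at 0.05, genes at 0 in both are left out, the solid line marks equal levels and the dashed lines mark the cutoffs of 0.85 and -0.85; the most abundant members lie along the solid line, and the triangles of Ndufaf1, Ndufaf2 and Ndufaf6 lie far under it.

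Fewer of the abundant members than of the less abundant lay past a cutoff. Of 30 members with a mean of 100 FPKM or more, 26 lay between the cutoffs, 4 were higher and 0 were lower. Past either cutoff were 13.3% of them, beside 19.6% of all measured genes at that level. Among 31 members with a mean of 30 to 100 FPKM, 4 were higher and 13 were lower, together 54.8% beside 30.1% of all genes at that level. Among 9 members at 10 to 30 FPKM 2 were higher and 4 were lower, beside 47.3% of all genes at that level past a cutoff. Among 5 members under 10 FPKM 1 was higher and 3 were lower, beside 59.0% of all genes. Over the 75 measured members, Spearman's rho between the mean FPKM and the absolute log2 ratio was -0.59, and between transcript length and the absolute log2 ratio 0.08. These describe genes that share the same libraries, and genes are not independent replicates.

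**Figure D2:**
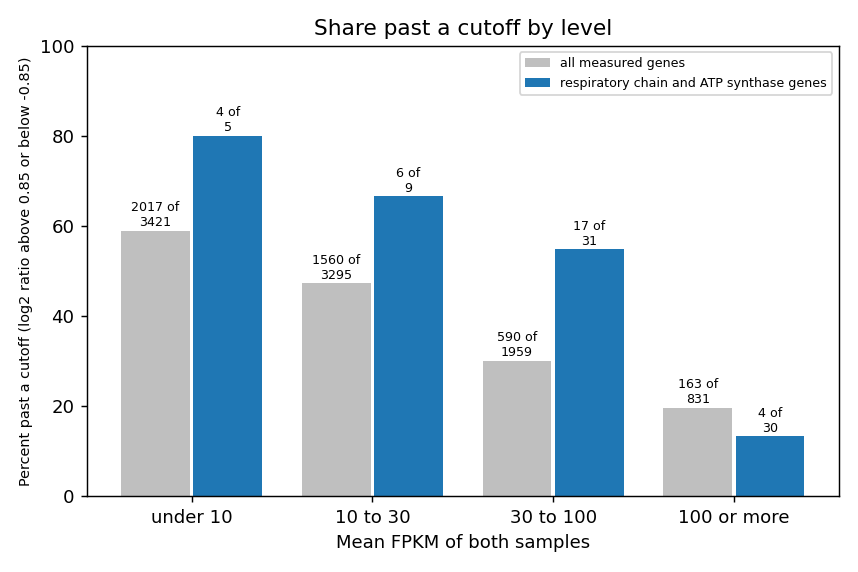
Percent of genes past either cutoff (y axis) in 4 classes of the mean FPKM of both samples (x axis), for all measured genes (grey) and for the members (blue), with the number past a cutoff and the number measured above each bar. The members stand above all genes in the classes under 100 FPKM and below them at 100 FPKM or more, 13.3% against 19.6%.

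The complexes differed in how many of their genes lay past a cutoff. In complex I 23 of 39 measured members did so, 7 higher and 16 lower, with a median log2 ratio of -0.37. In complexes II to V together 8 of 36 did so, 4 higher and 4 lower, with a median of 0.15. The complex I values of this paragraph include 7 measured assembly factors, a class that the rule gives to complex I only. Of the 32 measured subunits of complex I alone, 7 were higher and 11 lower, together 56.25%, with a median of -0.13. The level of the genes differs as well, 30 of the 39 complex I genes being under 100 FPKM against 15 of the 36 others. Among genes under 100 FPKM, 66.7% of complex I, 46.7% of complexes II to V and 48.0% of all measured genes were past a cutoff. Among genes at 100 FPKM or more these shares were 33.3% of 9 genes for complex I and 4.76% of 21 genes for complexes II to V, beside 19.6% of all measured genes. No test of these differences was made, and the medians of all members and of complexes IV and V, which lie near 0, turn below 0 with upper quartile scaling. The median of complex I was -0.21 on the TPM scale and -0.002 with a floor of 5 FPKM.

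**Figure D3:**
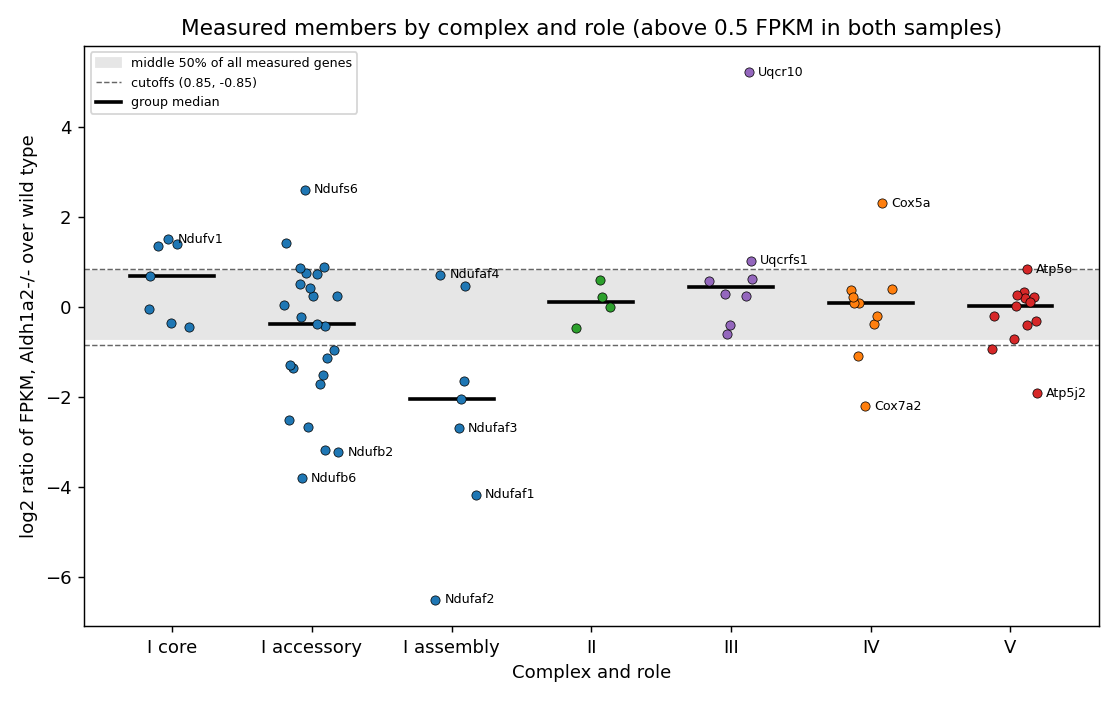
Log2 ratio of FPKM, Aldh1a2-/- over wild type (y axis), of each measured subunit and assembly factor by complex and role (x axis), with the group median as a black bar, the cutoffs as dashed lines and the range between the quartiles of all measured genes as a grey band. Core subunits of complex I have a median of 0.69 and its assembly factors one of -2.04, while the medians of complexes II, IV and V are near 0.

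The assembly factors of complex I stood lowest. Of 8 members of this class 7 were measured, 5 were lower and 0 were higher, and Ndufaf6 was listed at 0 in Aldh1a2-/-. Their summed level was 212 FPKM in wild-type trunk and 33.5 FPKM in Aldh1a2-/-, and their median log2 ratio was -2.04. Under 100 FPKM, where all of these genes lie, complex I subunits had a median of -0.45, with 4 of 23 higher and 11 lower. Of all measured genes, 31.3% were lower under 10 FPKM, 22.0% at 10 to 30 FPKM and 11.7% at 30 to 100 FPKM.

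Ndufaf2, a relative of the subunit Ndufa12 that helps to add the NADH-oxidising end of the complex, was at 96.4 FPKM in wild-type trunk and 1.06 FPKM in Aldh1a2-/-. This is 91.2-fold lower, and its log2 ratio of -6.51 was the lowest of all 9506 measured genes. At the estimated depth and a transcript of 556 bases, these levels come to about 1517 and 16.9 fragments, which after PCR of a low-input library are not independent molecules. The gene lies on chromosome 13 of mm10, 108002715 to 108158623, on the minus strand, and none of its 75-base windows occurs in another gene.

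Ndufaf1, which works early on the membrane arm, was at 38.8 FPKM in wild-type trunk and 2.15 FPKM in Aldh1a2-/-, 18.1-fold lower, with the 40th lowest ratio in the table. Ndufaf6, another early factor, was at 29.1 FPKM in wild-type trunk and was listed at 0 in Aldh1a2-/-. Ndufaf3 was at 18.2 and 2.81 FPKM, a ratio 6.49-fold lower. Ndufaf4, which binds Ndufaf3, was at 12.4 and 20.4 FPKM and lay between the cutoffs. The 2 partners were thus on opposite sides of equal levels, with only Ndufaf3 past a cutoff. Atp5sl, which despite its symbol is Dmac2, a factor of the distal membrane arm, was at 11.9 and 2.90 FPKM, 4.12-fold lower.

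The 2 factors that are modifying enzymes were scarce. Ndufaf7, a methyltransferase, was at 2.36 and 0.75 FPKM, 3.15-fold lower. Ndufaf5, which hydroxylates the core subunit Ndufs7, was at 2.51 and 3.48 FPKM and lay between the cutoffs. The gene 1810043H04Rik, an older name of Ndufaf8 and so not a member by the rule, was at 34.3 and 7.46 FPKM, or -2.20 in log2.

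Assembly genes of complex I that carry other names did not share this direction. Of 8 such genes 7 were measured, of which 3 were higher and 2 lower, with a median log2 ratio of 0.52. Acad9 and Ecsit, which act in the same assembly complex as Ndufaf1, were higher, at 6.94 and 20.6 FPKM and at 14.2 and 35.3 FPKM. Nubpl, which delivers iron-sulfur clusters, was also higher, at 3.84 and 13.6 FPKM. Foxred1 and Tmem126a were lower, at 8.88 and 0.745 FPKM and at 23.4 and 7.89 FPKM. Ecsit, whose ratio is smaller than those of the other 4, is named as a partner of Ndufaf1 and was chosen after its values were seen.

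Assembly genes of the other complexes lay on both sides as well. All 4 factors of complex II were measured and 2 were higher, Sdhaf1 at 13.6 and 40.5 FPKM and Sdhaf2, which attaches FAD to Sdha, at 6.01 and 39.3 FPKM. Of 7 further genes of complex III, 5 were measured, of which 3 were lower and 0 higher, with a median log2 ratio of -1.18. The 7 include Cyc1, a subunit gene and not an assembly factor, which lay between the cutoffs at 47.6 and 49.2 FPKM. The lower genes were Uqcc2, needed to make cytochrome b, at 292 and 49.1 FPKM, Uqcc1 at 22.78 and 8.76 FPKM and Ttc19 at 7.66 and 3.38 FPKM. Uqcc3 lay between the cutoffs at 14.75 and 11.19 FPKM. Bcs1l, which inserts the Rieske protein, was at 5.63 FPKM in wild-type trunk and was listed at 0 without Aldh1a2. Of 22 factors of complex IV, 16 were measured, of which 4 were higher and 6 lower. Cox14 was the extreme among them at 0.954 and 63.5 FPKM, and Coa7, at 1.30 and 12.6 FPKM, was higher too. Sco1, a copper chaperone, was lower at 4.68 and 0.51 FPKM, as was Cox19 at 16.4 and 2.15 FPKM. Of the further genes of complex V, Atpaf2, which assists the alpha subunit, was lower at 37.0 and 12.5 FPKM, and Atpaf1, its counterpart for the beta subunit, was at 4.31 FPKM in wild-type trunk and was listed at 0 without Aldh1a2.

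**Figure D4:**
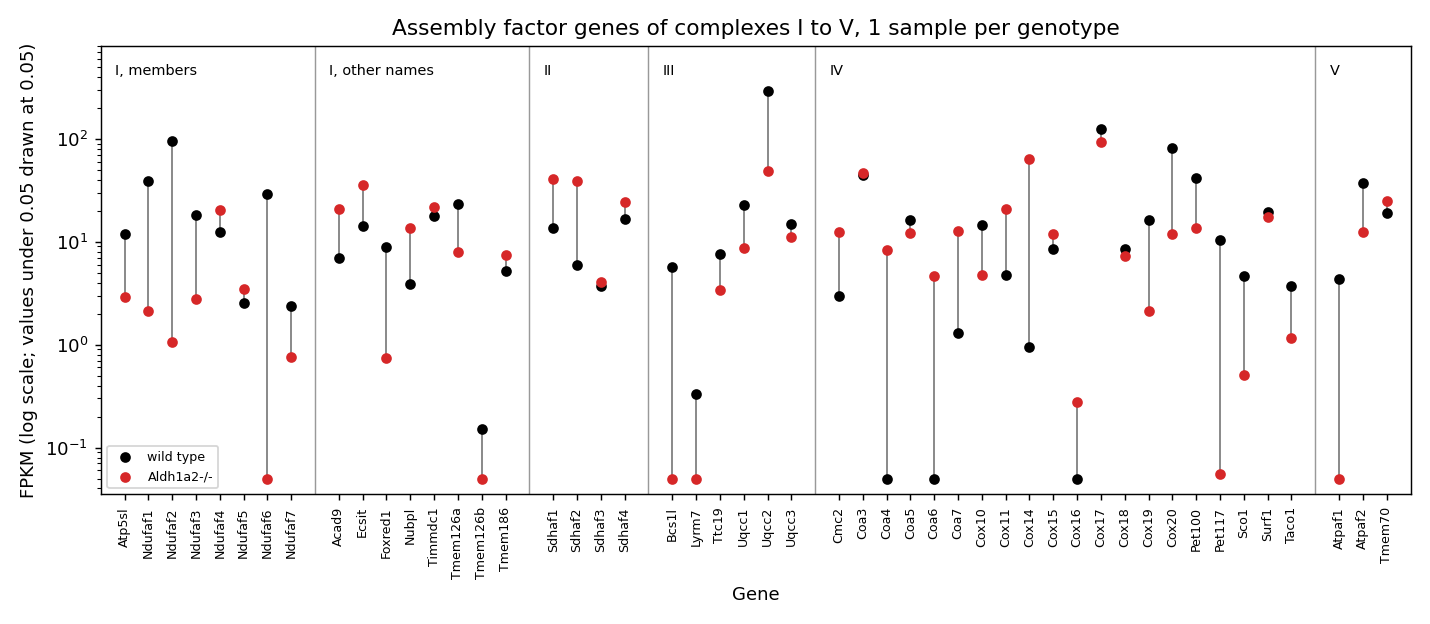
FPKM (y axis, log scale, values under 0.05 drawn at 0.05) of each assembly factor gene in the wild-type sample (black) and the Aldh1a2-/- sample (red), grouped by complex, with the 8 complex I members at the left. In that group 6 of the 8 red points lie under the black ones, and those of Ndufaf4 and Ndufaf5 lie above. The 4 red points of complex II all lie above, and those of complex III all lie under. The genes of complex I with other names and of complexes IV and V lie both ways.

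Of the core subunits of complex I, which carry the flavin and the iron-sulfur clusters, none was past the lower cutoff. All 7 were measured, of which 3 were higher and 0 lower, with a median log2 ratio of 0.69. Among all measured genes 23.6% were higher and 22.0% were lower. Ndufv1, which binds NADH and the flavin, was at 23.0 FPKM in wild-type trunk and 65.3 FPKM in Aldh1a2-/-, 2.83-fold higher. Ndufs7, which holds the last iron-sulfur cluster before the quinone, was at 72.2 and 189 FPKM, 2.61-fold higher, but the table places it in a locus of 48 genes on chromosome 10 that also holds Atp5d. Ndufs8 was at 29.4 and 47.5 FPKM. A further 3 lay below equal levels but between the cutoffs, Ndufs1 at 29.6 and 28.7 FPKM, Ndufv2 at 54.7 and 42.4 FPKM and Ndufs3 at 13.0 and 9.53 FPKM. So within the NADH-oxidising end, made of Ndufv1, Ndufv2 and Ndufs1, only Ndufv1 was past a cutoff.

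The accessory subunits of complex I lay on both sides of equal levels. Of 29 genes 25 were measured, 4 were higher and 11 were lower. The lowest ratio was that of Ndufb6, at 17.4 FPKM in wild-type trunk and 1.24 FPKM in Aldh1a2-/-, 14.1-fold lower. Ndufb2 was at 71.6 and 7.61 FPKM, and Ndufa10 at 65.5 and 7.27 FPKM, each about 9-fold lower. Ndufa2 was at 92.3 and 14.5 FPKM and Ndufv3, which sits beside the flavin-binding subunit, at 92.9 and 16.2 FPKM. The table gives the loci of Ndufa10 and Ndufa2 another gene each, which for Ndufa2 is Tmco6. These 5 genes, all between 17 and 93 FPKM in wild type, made up the steep end of the class.

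The other 6 lower genes differed less. Ndufa8, which faces the intermembrane space, was at 52.6 and 16.0 FPKM. Ndufa9 was at 86.1 and 29.97 FPKM and Ndufa1, an X-linked subunit of the membrane arm, at 66.4 and 25.8 FPKM. Ndufa11 was at 20.1 and 8.27 FPKM, Ndufc1 at 83.4 and 37.8 FPKM, and Ndufb7, at 123 and 63.6 FPKM, lay just past the cutoff with a log2 ratio of -0.96.

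The 4 higher accessory genes were led by Ndufs6, a zinc-binding subunit, at 7.31 FPKM in wild-type trunk and 44.3 FPKM in Aldh1a2-/-, 6.07-fold higher. Ndufc2 was at 20.8 and 55.6 FPKM. Ndufs4 was at 34.8 and 64.4 FPKM and Ndufb10 at 156 and 284 FPKM, both with ratios next to the cutoff, 0.89 and 0.86. Just inside the same cutoff were Ndufa12 at 0.76 and Ndufa3 at 0.74. Ndufb10 and the within-cutoff Ndufa7, at 130 and 184 FPKM, and Ndufa6, at 140 and 166 FPKM, are the 3 accessory genes with the highest mean level.

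Complex II was level. Sdha, which carries FAD and oxidises succinate, was at 75.1 FPKM in wild-type trunk and 54.6 FPKM in Aldh1a2-/-. Sdhb, the iron-sulfur subunit, was at 58.5 and 58.7 FPKM. The membrane anchors Sdhc and Sdhd were at 41.5 and 62.4 FPKM and at 37.5 and 43.7 FPKM. All 4 lay between the cutoffs, the only complex of which that held, but each other complex has more measured genes. At 30 to 100 FPKM, where the means of these 4 lie, 30.1% of all measured genes were past a cutoff. Of the citric acid cycle, 10 of 13 measured genes also lay between the cutoffs, with a median log2 ratio of 0.18. The exceptions were Idh3g, higher at 28.6 and 60.3 FPKM, Idh3b, lower at 51.5 and 23.6 FPKM, and Suclg2, lower at 9.98 and 2.11 FPKM.

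In complex III all 8 members were measured, of which 2 were higher and 0 lower, with a median log2 ratio of 0.43. Uqcrfs1, the Rieske iron-sulfur protein that takes electrons from ubiquinol, was at 50.5 FPKM in wild-type trunk and 103 FPKM in Aldh1a2-/-, 2.04-fold higher. The core proteins Uqcrc1 and Uqcrc2 were at 88.5 and 137 FPKM and at 56.1 and 84.2 FPKM, both inside the cutoff. The most abundant members, Uqcrh and Uqcrb, were at 297 and 362 FPKM and at 296 and 352 FPKM. Uqcr11 was at 88.8 and 58.3 FPKM and Uqcrq at 69.9 and 53.0 FPKM.

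Uqcr10, a small subunit beside the Rieske protein, stood apart from the rest of its complex. It was at 0.972 FPKM in wild-type trunk and 36.1 FPKM in Aldh1a2-/-, 37.1-fold higher, the 19th highest ratio in the table. It has 1 coding transcript of 434 bases (chromosome 11 of mm10, 4701973 to 4704342, minus strand), so its wild-type level comes to about 11.9 fragments, and none of its windows has a copy elsewhere. The other 7 genes of the complex, whose proteins stand in equal numbers with it in the enzyme, lay between 50.5 and 297 FPKM in wild type.

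In complex IV 11 of 20 members were measured, of which 2 were higher and 2 lower, and their median log2 ratio was 0.08. The most abundant were Cox5b at 365 and 385 FPKM, Cox4i1, the common form of subunit 4, at 225 and 293 FPKM, and Ndufa4, at 202 and 234 FPKM, which is named after complex I but belongs to complex IV. Cox5a, which joins with Cox4i1 early in assembly, was at 36.9 FPKM in wild-type trunk and 183 FPKM in Aldh1a2-/-, 4.95-fold higher. Cox6b1, which faces the intermembrane space, was at 128 and 60.1 FPKM, 2.12-fold lower. Within one family the directions parted. Cox7a2, the common form of subunit 7a, was at 56.6 and 12.3 FPKM, 4.61-fold lower. Cox7a2l, its relative that links complexes III and IV into supercomplexes, was at 1.96 and 18.0 FPKM, 9.17-fold higher. Of the windows of Cox7a2l 13.4% occur in other genes, and of those of Cox7a2 0%.

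The paralogs known from other tissues were mostly listed at 0, which is not read as an absent transcript. Cox6a2, Cox7a1 and Cox8b, the heart and skeletal muscle forms, were listed at 0 in both samples, as were Cox7b2 and Cox8c. Cox6b2, the testis form, was at 0.760 FPKM in wild-type trunk and was listed at 0 without Aldh1a2. Their common counterparts were all expressed, Cox6a1 at 53.3 and 70.1 FPKM, Cox7b at 220 and 193 FPKM and Cox8a at 148 and 156 FPKM. The forms that low oxygen induces were low, with Cox4i2 at 4.55 FPKM and Ndufa4l2 at 0.478 FPKM in wild type, both listed at 0 in Aldh1a2-/-. The table places Cox4i2 in a locus with Bcl2l1 and Ndufa4l2 in a locus with Shmt2.

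In complex V 13 of 16 members were measured, of which 0 were higher and 2 lower, with a median log2 ratio of 0.03. Atp5b, the catalytic beta subunit, was at 404 FPKM in wild-type trunk and 460 FPKM in Aldh1a2-/-, and Atp5a1, the alpha subunit, at 276 and 347 FPKM. The central stalk genes Atp5c1, Atp5d and Atp5e were at 132 and 80.9, 110 and 129, and 127 and 109 FPKM, so all 5 genes of the rotating and catalytic head lay between the cutoffs. Atp5j was the most abundant of all members, at 580 and 592 FPKM, with Atp5h next after Atp5b at 389 and 469 FPKM. Atp5o, which ties the head to the peripheral stalk, was at 73.6 and 132 FPKM, with a log2 ratio of 0.84 just inside the cutoff.

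The 2 lower genes of complex V belong to its membrane part. Atp5j2, subunit f, was at 75.7 FPKM in wild-type trunk and 19.98 FPKM in Aldh1a2-/-, 3.79-fold lower. Atp5g1, 1 of 3 genes that encode the same c subunit of the proton-driven ring, was at 37.4 and 19.5 FPKM, just past the cutoff at -0.94. Its counterpart Atp5g3 was at 148 and 120 FPKM, and Atp5g2 was listed at 0 in wild type and at 3.12 FPKM in Aldh1a2-/-. Since the proteins are the same once imported, the summed level over the 3 genes is also given, 186 FPKM in wild-type trunk and 143 FPKM in Aldh1a2-/-, or -0.38 in log2.

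Some members were listed at 0 in 1 or both samples, among them genes whose protein is a fixed part of the finished enzyme. Of 82 members above 1 FPKM in either sample, 7 were listed at 0 in the other, 8.54% beside 14.6% of all 11795 such genes in the table. Besides Ndufaf6 and Cox4i2 these were Cox7c, at 21.4 FPKM in wild-type trunk and 0 in Aldh1a2-/-, Ndufab1, the mitochondrial acyl carrier protein, at 14.6 and 0 FPKM, Ndufb3, at 3.92 and 0 FPKM, Ndufb4, at 0 and 13.3 FPKM, and Atp5g2. Subunit g of ATP synthase, Atp5l, and the complex I subunit Ndufs5 were listed at 0 in both samples. No fold is given for them, and a listed 0 is not read as an absent transcript.

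Many of these genes have near-identical copies in the genome, some identical over the length of a read of 75 bases. In 26 of 92 members at least 1 window of 75 bases of the longest coding transcript occurs exactly in a gene elsewhere. In 8 members 20% or more of the windows do, and 4 of these 8 were listed at 0 in 1 or both samples, against 12 of the other 84. These 4 are Atp5l with 63.4% of its windows, Ndufb4 with 35.2%, Cox7c with 25.04% and Ndufs5 with 24.1%. The other 4, Atp5h, Uqcrb, Ndufs3 and Ndufa12, were measured and none was past a cutoff. Of the 31 members past a cutoff 25 share no window with a gene elsewhere. Windows shared with a gene that overlaps the same locus are not counted here. Among members past a cutoff, they made up 31.3% of windows in Ndufb6, 21.7% in Cox5a and 3.61% in Ndufb2. How the authors' counting treated shared reads was not tested.

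Part of the match, 90 bases long, is shown for Atp5l and for Ndufs5 beside the same bases of the processed pseudogene. For Atp5l it is the start of the coding sequence, and for Ndufs5 bases 106 to 195 of its coding sequence. All are on mm10 from GENCODE M21 transcripts. The bases are in lower case, and since each pair has 0 mismatches over its 90 bases none is capitalised.
Atp5l (chromosome 9): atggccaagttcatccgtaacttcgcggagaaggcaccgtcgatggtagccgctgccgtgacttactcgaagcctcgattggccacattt
Gm10221 (chromosome 5): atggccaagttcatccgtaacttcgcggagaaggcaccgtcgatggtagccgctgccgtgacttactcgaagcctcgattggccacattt
Ndufs5 (chromosome 4): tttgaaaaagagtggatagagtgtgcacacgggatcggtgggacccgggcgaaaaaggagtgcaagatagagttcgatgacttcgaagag
BC002163 (chromosome 16): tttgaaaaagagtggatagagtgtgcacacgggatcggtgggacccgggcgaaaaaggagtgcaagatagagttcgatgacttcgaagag
The deposited table gives BC002163 the position of Ndufs5 on chromosome 4, 123712710 to 123718186, with 1.33 FPKM in wild-type trunk and 45.9 FPKM in Aldh1a2-/-, whereas GENCODE M21 places that symbol on chromosome 16, 42955631 to 42955949. Which gene the reads of that row come from was not tested, and neither row is read as a difference of the subunit.

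The promoters were searched for motifs of the factors known for this gene set, in the 300 bases from 250 before to 50 after the start site, in RefSeq sequence of GRCm38.p6. A promoter was found for 76 of the 92 members. Those not found include Atp5a1, Cox4i1, Cox4i2, Cox6a2, Cox6c, Cox8c, Ndufa2, Ndufa4l2, Ndufaf6, Ndufb9, Ndufs1, Sdhc, Uqcrb, Uqcrc2 and Uqcrq. The motif of NRF1 (nuclear respiratory factor), GCGC and TGCGC with any base between them, on either strand, was in 18 promoters or 23.7%, beside 11.9% of 7243 promoters of measured genes and 4.78% of all 27025 promoters. The ETS motif CCGGAAG, which GABP binds, was in 16 or 21.1%, beside 20.4% of measured genes and 9.12% of all. The cAMP response motif TGACGTCA was in 4, or 5.26%, beside 3.64% and 1.88%. The RA response elements made of direct repeats of the RAR half-site with spacers of 1, 2 or 5 bases were in 1, 0 and 0 promoters. Of the promoters of measured genes 0.221%, 0.0967% and 0.0414% held them, and of all promoters 0.226%, 0.263% and 0.0962%. A match is a description and not a binding site.

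Most measured genes whose promoters held NRF1 or ETS motifs lay between the cutoffs. Of the 18 genes with the NRF1 motif, Ndufs6 was higher and Ndufa8 and Ndufa11 were lower, and the other measured ones lay between the cutoffs. Of the 16 with the ETS motif, Cox6b1, Ndufaf1, Ndufb6 and Ndufb7 were lower and no gene was higher. The 4 genes with the cAMP response motif were all past a cutoff, Ndufa10, Ndufa11 and Ndufb2 lower and Uqcrfs1 higher. Among all measured genes 23.6% were higher and 22.0% were lower. Nrf1 was at 17.0 and 22.3 FPKM and Gabpb1 at 25.2 and 18.5 FPKM, while Gabpa was lower at 28.5 and 14.4 FPKM, in a locus the table shares with Atp5j. Esrra, an orphan receptor that acts on this gene set, was higher at 0.601 and 2.32 FPKM.

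The promoter of Ndufs6 is shown because it alone among the members held a direct repeat with a spacer of 1 base, and those of Ndufa8 and Ndufaf1 as lower genes with an NRF1 and an ETS motif. Capitals mark the motifs and the last 50 bases follow the start site, and the genes were chosen after their values were seen.
Ndufs6 (chr13:73328433-73328732, minus strand): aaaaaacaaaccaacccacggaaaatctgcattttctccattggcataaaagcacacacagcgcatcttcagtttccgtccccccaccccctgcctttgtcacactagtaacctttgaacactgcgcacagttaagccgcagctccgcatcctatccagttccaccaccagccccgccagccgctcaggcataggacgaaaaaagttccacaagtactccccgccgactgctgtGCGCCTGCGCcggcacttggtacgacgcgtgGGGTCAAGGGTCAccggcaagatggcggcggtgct
Ndufa8 (chr2:36049289-36049588, minus strand): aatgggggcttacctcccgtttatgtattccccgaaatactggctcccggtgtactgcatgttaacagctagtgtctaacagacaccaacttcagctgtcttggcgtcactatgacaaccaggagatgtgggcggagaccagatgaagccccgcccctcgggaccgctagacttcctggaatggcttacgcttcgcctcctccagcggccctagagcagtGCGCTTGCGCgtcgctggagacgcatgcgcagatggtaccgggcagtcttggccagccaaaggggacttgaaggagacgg
Ndufaf1 (chr2:119662785-119663084, minus strand): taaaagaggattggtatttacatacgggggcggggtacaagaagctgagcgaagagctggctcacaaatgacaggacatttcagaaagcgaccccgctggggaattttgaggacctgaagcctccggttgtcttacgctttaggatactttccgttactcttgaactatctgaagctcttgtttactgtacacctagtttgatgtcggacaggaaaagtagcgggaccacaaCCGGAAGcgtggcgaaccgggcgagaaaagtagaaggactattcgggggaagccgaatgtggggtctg
In Ndufs6 the NRF1 motif starts 16 bases before the start site and the direct repeat starts at base 16 after it. In Ndufa8 the NRF1 motif starts 30 bases before the start site, and in Ndufaf1 the ETS motif starts 18 bases before it.

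The nuclear genes that copy and transcribe mitochondrial DNA were split as well. Of 10 such genes 6 were measured, 2 were higher and 2 were lower. Polrmt, the mitochondrial RNA polymerase, was higher at 5.72 and 17.8 FPKM, and Polg, the mitochondrial DNA polymerase, at 21.5 and 63.9 FPKM. Tfam, which packs mitochondrial DNA and starts its transcription, was lower at 35.7 and 19.4 FPKM, and Ssbp1, which binds single-stranded mitochondrial DNA, at 115 and 34.8 FPKM. Mterf3, Tfb1m and Tfb2m were at 20.2, 6.55 and 6.53 FPKM in wild-type trunk and was listed at 0 without Aldh1a2. Cycs, cytochrome c itself, was at 29.6 and 31.6 FPKM.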

How the data were processed

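RNA-seq of E8.5 trunk tissue was used, 1 wild-type and 1 Aldh1a2-/- sample. The authors deposited a table of 24340 genes on mm10 with the FPKM of each sample, and also their fold change, test statistic, p-value, q-value and call, which were not used. STAR, Cufflinks and Cuffdiff, with no version, are named in the submitters' processing notes. The methods name another aligner, TopHat, and another test, and describe single 75-base reads from a low-input total RNA kit. The labels add a poly(A) kit. Log2 ratios had no pseudocount and needed both samples to be above 0.5 FPKM. Cutoffs were -0.85 and 0.85. With 1 sample per genotype, nothing was tested. Depth was estimated from the steps between low FPKM of genes with 1 transcript (61 genes in wild type and 44 in Aldh1a2-/-, of whose values 57.4% and 65.9% came within 0.15 of a whole fragment), so fragment numbers are approximate. Coordinates and copy windows came from GENCODE M21 on mm10, promoters and symbols from RefSeq. Roles were assigned by hand, Ndufa4 to complex IV and Atp5sl to complex I assembly. Values of some genes are not reported here. The text covers members past a cutoff or listed at 0 in 1 sample and the 3 most abundant per complex. It also covers core subunits, paralogs and assembly factors. From each other list it gives up to 4 measured genes with the largest absolute log2 ratios. Ecsit, Cyc1, unmeasured heart muscle genes and some genes at 0 were added. The members and lists were chosen with earlier results of these data known. Alternatives were floors of 0.1, 1 and 5 FPKM, pseudocounts, the TPM scale, upper quartile scaling, centring, rows with status OK and cutoffs of -1 and 1. The scripts, checked on simulated data, ran under Python 3.11.15 with matplotlib 3.10.9, pandas 2.3.3 and numpy 2.4.6.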

Additional observations from a re-analysis of the deposited data

How the results depend on the processing

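The numbers of higher and lower members, 11 and 20, stayed within 1.5 times under every alternative, between 9 and 15 higher and between 14 and 26 lower. The split was 15 higher and 18 lower on the TPM scale. That scale moved the median log2 ratio of all measured genes from 0.02 to 0.18, and upper quartile scaling moved it to -0.08. On the TPM scale the medians were 0.20 for all members, 0.23 for subunits, -1.89 for assembly factors and -0.21, 0.27, 0.59, 0.24 and 0.19 for complexes I to V. With upper quartile scaling they were -0.063, -0.024, -2.15 and -0.47, 0.009, 0.33, -0.022 and -0.073, so the signs for all members, subunits and complexes IV and V turn, being near 0. The log2 ratio of the summed FPKM, 0.05, became 0.21 and -0.049. The median of assembly factors was -2.37 with a floor of 1 FPKM, 0.72 with a floor of 5 FPKM, at which 1 gene (Ndufaf4) is left, -1.87 and -1.73 with pseudocounts of 0.5 and 1, and -2.19 with the floor in either sample. That last setting gave -0.058 for complex IV. The floor of 5 FPKM gave -0.002 for complex I, complex III gave 0.28 with floors of 1 and 5 FPKM, and complex V gave -0.091 with a floor of 0.1 FPKM. Chosen after the data were seen, leaving out members with a copied window gave -2.37 for assembly factors, 0.63 for complex III and -0.21 for complex V, and leaving out members in shared loci gave 0.28, -0.30 and -0.095 for complex III, complex V and all members. Calls of single members changed for 6 of 75 genes on the TPM scale, 2 with upper quartile scaling, 1 with centring and 4 with cutoffs of -1 and 1, all near a cutoff. None of the 31 called members changed direction. With 1 sample per genotype no sample could be left out. No paired analysis was possible because the result comes from no test.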
